A study of Mus musculus with 4 samples.

Results

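The genes described here are 10 transcription factors that direct the formation of granulocytes, monocytes and dendritic cells: Cebpa, Cebpb, Cebpd and Cebpe, which encode C/EBP alpha, beta, delta and epsilon, Spi1, which encodes PU.1, and Gfi1, Irf8, Gata1, Batf3 and Zbtb46. They were chosen by name, and all 10 have a row among the 24768 genes used. They were measured by RNA sequencing in mouse cDNT cells, which the series title places among double-negative T cells (T cells without CD4 and CD8). The labels give 2 wild-type (WT) libraries and 2 libraries of genotype Tbx21-KO, in which the gene of the T-box factor T-bet is targeted. The same group is a Tbx21 knockdown in the design text. The sources used here do not give how Tbx21 was targeted, the strain and age of the mice, or whether libraries of a group came from separate animals or cultures. The p-values therefore measure only how far these libraries differ, and that spread may be technical.

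Myeloid cells arise from bone marrow progenitors under the control of a small set of DNA-binding proteins. PU.1, an ETS-family factor, and C/EBP alpha, a basic leucine zipper factor, open the granulocyte and monocyte programme, C/EBP epsilon drives the later granule stage of neutrophils and eosinophils, and C/EBP beta and delta respond to inflammatory signals. GFI1 favours granulocytes and IRF8 favours monocytes and dendritic cells, GATA1 serves erythroid, megakaryocyte, mast cell and eosinophil lineages, and BATF3 and ZBTB46 belong to conventional dendritic cells. Several of these factors are also made by lymphocytes: GFI1, IRF8 and BATF3 are known from activated T cells.

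Levels are in FPKM, which corrects fragment counts for gene length and library total, and imply totals of 23342603 to 24967028 counted reads per library, a number that can be smaller than the sequencing depth. The WT libraries held 13.2 and 11.7 FPKM of Tbx21 and the Tbx21-KO libraries 2.29 and 2.41 FPKM, or 18.8% of the WT mean, so transcript remained. The T cell gene Cd3e, a chain of the T cell receptor complex, gave 57.2 and 56.1 FPKM (WT) and 40.2 and 39.8 FPKM (Tbx21-KO), so the defining transcript was present in all 4 libraries. Of 18 T cell receptor genes with a row, 13 were lower, 1 higher and 4 not called in Tbx21-KO. Over all 11013 genes tested 23.0% were lower and 30.1% higher. The median log2 fold change of the list was -0.41, against 0.04 over all genes tested. Cd28 and Lck fell by 1.41 and 1.24 on the log2 scale, and Cd5 rose by 0.53. In bulk libraries, more cells of a type and more RNA of a gene per cell cannot be told apart, and this holds for every change given here.

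In WT cells 3 of the 10 factors were clearly expressed: Irf8 at 54.2 ± 1.74 FPKM, Gfi1 at 15.3 ± 0.44 FPKM and Batf3 at 6.52 ± 0.43 FPKM (SD, n = 2 each). The other 7 were below 1 FPKM in both WT libraries. In Tbx21-KO cells 6 factors stood between 25.0 and 38.1 FPKM: Cebpe, Spi1, Gfi1, Irf8, Cebpa and Batf3, in that order of their means. Cebpe, Spi1 and Cebpa joined this group from under 1 FPKM, and Irf8 came down to it. For all 10 factors the values of the 2 groups did not overlap, with the Tbx21-KO values above those of WT for each factor but Irf8. Of the 16930 genes with a mean of at least 0.1 FPKM, a limit all 10 factors pass, 71.2% had groups that did not overlap, 43.8% with Tbx21-KO above WT and 27.5% with Tbx21-KO below it. With 2 libraries a group, lack of overlap is thus common and sets none of the factors apart.

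**Figure D1:**
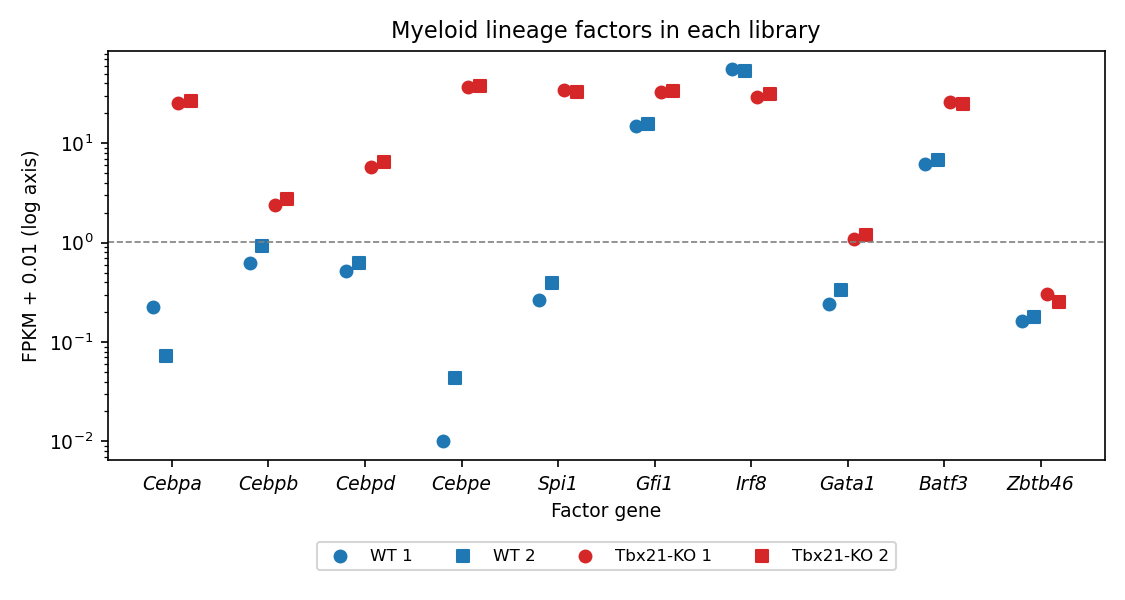
FPKM of each factor in each library on a log axis, with 0.01 added so that 0 can be drawn. Blue marks are the 2 WT libraries, red marks the 2 Tbx21-KO libraries, and the dashed line marks 1 FPKM. Red marks lie above blue marks for each factor but Irf8.

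The comparison was fitted with limma on log2(FPKM + 1) in genes with a mean of at least 1 FPKM over the 4 libraries, and a gene counts as higher or lower in Tbx21-KO where the Benjamini-Hochberg adjusted p is under 0.05. Of the 10 factors, 8 passed this filter. Of these, 7 were called higher, where 30.1% of all genes tested were called higher, and 1, Irf8, was called lower, where 23.0% were (53.1% in either direction). Of the 8, only Gfi1, Irf8 and Batf3 had a WT mean of at least 1 FPKM. The other 5 passed through the Tbx21-KO libraries in which they were high, so they could hardly have been called lower and their count supports nothing. Gata1 and Zbtb46 were under the filter. With the filter lowered to a mean of 0.1 FPKM all 10 were tested, of which 8 were higher, 1 was lower and 1, Zbtb46, was not called. There 23.4% of 16930 genes were higher and 14.5% lower, 37.9% in either direction.

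**Figure D2:**
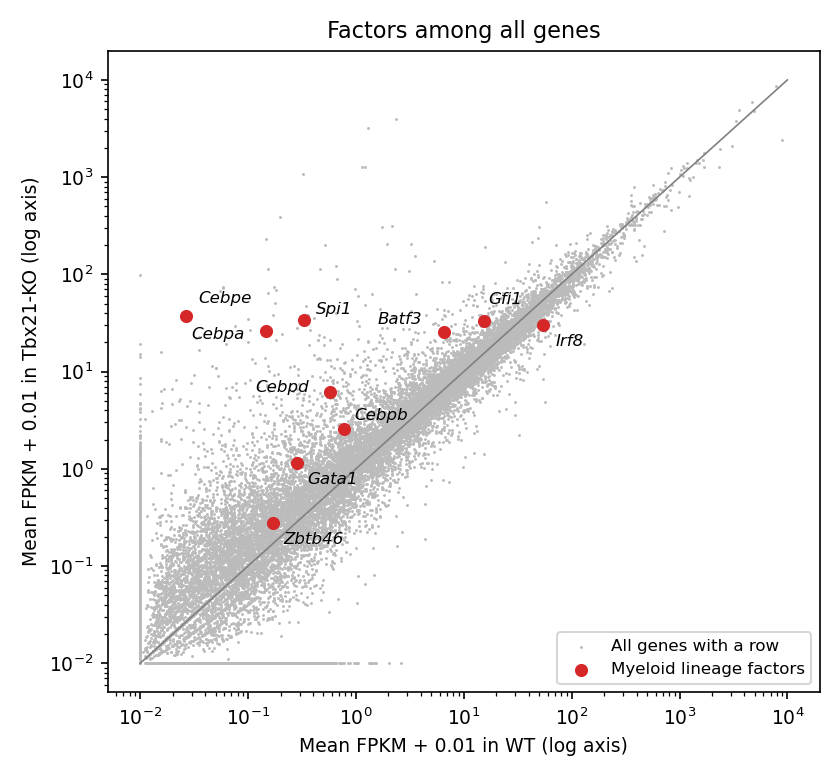
Mean FPKM of each gene in WT (horizontal) and Tbx21-KO (vertical), both on log axes with 0.01 added. Grey points are all 24768 genes, red points the 10 factors, and the line marks equal levels. Cebpe, Cebpa and Spi1 lie far above the line, Zbtb46 lies near it and Irf8 below it.

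Cebpa, which sets the granulocyte and monocyte fate of progenitors (ENSMUSG00000034957), had 0.213 FPKM in WT 1 and 0.0629 in WT 2, against 25.7 in Tbx21-KO 1 and 26.9 in Tbx21-KO 2. The WT values correspond to 14 and 4 reads and the Tbx21-KO values to 1583 and 1706 reads. Cebpa was thus close to absent in WT and among the more abundant factors in both Tbx21-KO libraries. Relative to library totals its reads were 189 times those of WT, with an exact 95% interval of 120 to 320 that covers counting error only, as do all intervals on reads here. The log2 fold change, which this scale understates for genes low in WT, was 4.59 (SE 0.09, limma adjusted p = 1.39e-05). Cebpa is a gene of 1 exon on chromosome 7, 35119293 to 35121928 (GRCm38).

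Cebpe, the C/EBP of the granule stage (ENSMUSG00000052435), had 0 FPKM in WT 1 and 0.0335 in WT 2, against 36.5 in Tbx21-KO 1 and 38.1 in Tbx21-KO 2. No read in WT 1 and 1 read in WT 2 stood against about 1059 and 1137 reads in the Tbx21-KO libraries. It was the lowest of the 10 factors in WT and the highest in Tbx21-KO. The ratio of reads rests on that 1 read, at 2280 with an interval of 408 to 89900. The log2 fold change was 5.24 (SE 0.06, limma adjusted p = 3.99e-06). Cebpe lies on chromosome 14, 54710360 to 54712174.

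Cebpd, an inflammation-induced C/EBP (ENSMUSG00000071637; chromosome 16, 15887286 to 15891031), gave 0.513 and 0.62 FPKM in the WT pair against 5.83 and 6.46 FPKM in the Tbx21-KO pair. Both Tbx21-KO values were above both WT values. It rose 10.9-fold, or 2.19 on the log2 scale (SE 0.09, limma adjusted p = 9.74e-05). Cebpb, which acts in emergency granulocyte production and in macrophages (ENSMUSG00000056501; chromosome 2, 167688915 to 167690418), gave 0.613 and 0.909 FPKM in the WT pair against 2.36 and 2.77 FPKM in the Tbx21-KO pair. It had the smallest rise of the 4 C/EBP genes, 3.37-fold or 1.02 on the log2 scale (SE 0.13, limma adjusted p = 0.00287). Exons of Cebpb and Cebpd share 312 and 562 bases with genes on the opposite strand, Tmem189 and Spidr, which have rows of their own. The sources used here do not state whether counting used strand, so the few reads of Cebpb and Cebpd in WT (56 and 104 over both libraries) cannot be told apart from reads of these neighbours. Tmem189 stood at 21.9 and 20.6 FPKM (WT) against 17.5 and 18.4 (Tbx21-KO). Spidr stood at 10.1 and 10.2 FPKM (WT) against 12.0 and 11.2 (Tbx21-KO). Cebpa shares 51 exon bases with the antisense gene Gm45091, which was under 0.5 FPKM in all 4 libraries.

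The counted make-up of the C/EBP transcripts was set side by side in the groups, with the limit just given on Cebpb and Cebpd reads in WT. Summed over the 4 genes, C/EBP FPKM came to 1.34 and 1.63 in the WT libraries and to 70.5 and 74.3 in the Tbx21-KO libraries. In WT, Cebpb held 45.8% and 56.0% of that sum and Cebpd 38.3% and 38.1%. In Tbx21-KO, Cebpe held 51.9% and 51.3% and Cebpa 36.5% and 36.3%, and Cebpb fell to 3.36% and 3.72%. The 2 Tbx21-KO libraries were thus alike in their C/EBP make-up. Cebpa was at 15.9% in WT 1 and 3.87% in WT 2, from 14 and 4 reads. The WT shares rest on few reads, most of them of Cebpb and Cebpd, so they hold only as far as those reads belong to these genes.

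**Figure D3:**
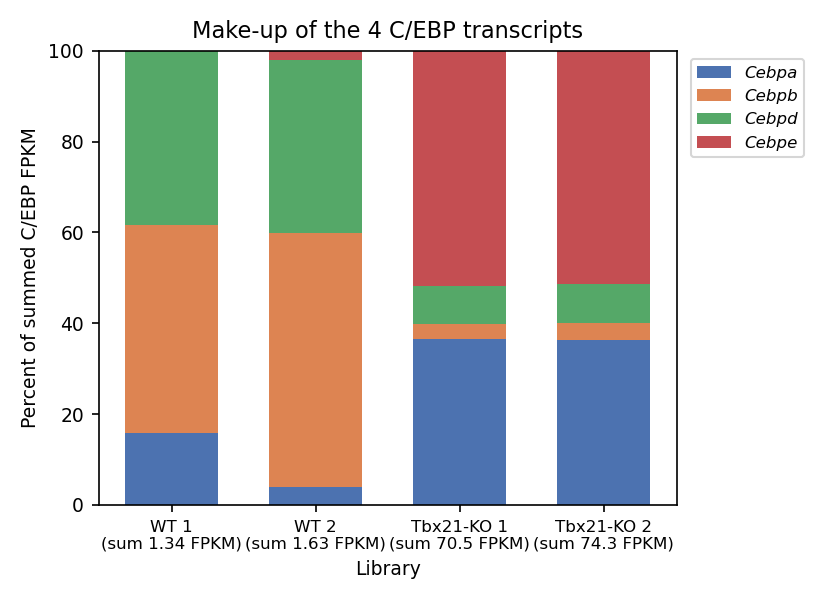
Share of each C/EBP gene in the summed FPKM of the 4 genes, as percent, in each library, with the sum under each bar. Cebpb and Cebpd make up most of the small sum in WT, and Cebpe and Cebpa most of the large sum in Tbx21-KO.

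Spi1, which encodes PU.1 (ENSMUSG00000002111), had 0.253 FPKM in WT 1 and 0.384 in WT 2, from 17 and 25 reads, against 34.2 in Tbx21-KO 1 and 33.1 in Tbx21-KO 2, from 2153 and 2147 reads. It was low in both WT libraries and on a level with Gfi1 in both Tbx21-KO libraries. Relative to library totals its reads were 106 times those of WT (interval 78.4 to 147.0), and the fitted log2 difference was 4.72 (SE 0.07, limma adjusted p = 8.21e-06). Spi1 lies on chromosome 2, 91082390 to 91115756. Cebpa stood at 0.752 and 0.812 of the Spi1 level in the Tbx21-KO libraries, compared per length in FPKM.

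Gata1, which opposes PU.1 in progenitors (ENSMUSG00000031162; chromosome X, 7959260 to 7978071), gave 0.23 and 0.323 FPKM in the WT pair against 1.09 and 1.18 FPKM in the Tbx21-KO pair, from 14 and 19 and from 62 and 69 reads. It was higher in both Tbx21-KO libraries and remained among the lowest of the 10 factors. Its read ratio was 4.11 (interval 2.79 to 6.22). In the fit with the lower filter its log2 fold change was 0.74 (SE 0.09, limma adjusted p = 0.00582, and 0.0132 with no filter). Spi1 and Gata1 were close to equal in WT, where their FPKM ratio was 1.10 and 1.19 (counting intervals 0.51 to 2.41 and 0.63 to 2.29). In Tbx21-KO the ratio was 31.4 and 28.1 (24.4 to 41.1 and 22.1 to 36.3). Both genes were higher, and Spi1 by far more.

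Gfi1, a repressor that acts in neutrophil precursors and also in T cells (ENSMUSG00000029275; chromosome 5, 107716657 to 107726036), had WT values of 15.0 and 15.6 FPKM and Tbx21-KO values of 32.9 and 33.8 FPKM. It was already well expressed in WT and rose 2.18-fold, or 1.08 on the log2 scale (SE 0.04, limma adjusted p = 9.57e-05). Its exons share 101 bases with the opposite-strand transcript A430072P03Rik, which stayed under 3 FPKM in each library. Irf8, an interferon regulatory factor that favours monocytes and dendritic cells over granulocytes (ENSMUSG00000041515; chromosome 8, 120736358 to 120756694), had WT values of 55.5 and 53.0 FPKM and Tbx21-KO values of 29.5 and 31.2 FPKM. It was the most abundant of the 10 factors in WT and the only one lower in Tbx21-KO, at 56.0% of its WT mean, a log2 difference of -0.82 (SE 0.05, limma adjusted p = 0.000282). Its values rest on 9768 and 9021 reads in WT and on 4861 and 5286 reads in Tbx21-KO. The FPKM ratio of Gfi1 to Irf8 was 0.27 and 0.294 in the WT libraries and 1.12 and 1.08 in the Tbx21-KO libraries. In FPKM the order of these factors was therefore reversed, from Irf8 above Gfi1 to Gfi1 above Irf8, in both libraries of the second group. The margin there was small (counting intervals 1.06 to 1.17 and 1.03 to 1.14) and depends on the exon lengths used. Reads of Gfi1 in Tbx21-KO, 2449 and 2588, stayed below those of Irf8.

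The T cell receptor genes were also lower in Tbx21-KO, so the fall of Irf8 was set against them. With the libraries rescaled to the geometric mean of the T cell receptor list, Irf8 came to 48.2 and 44.5 in WT and to 34.6 and 36.4 in Tbx21-KO, in rescaled FPKM. The groups still did not overlap, and the log2 fold change was -0.38 (SE 0.06, limma adjusted p = 0.00256, over all alternatives 2.08e-09 to 0.0047). Under this scaling 4.87% of all genes were called lower and 71.8% higher, 76.7% in either direction, and the median of all genes moved by 0.40 on the log2 scale. Of the 18 T cell receptor genes 7 were also called lower with it and 7 higher, from Cd28 at -0.98 to Cd5 at 0.91. Trac, at -0.43, and Ptprc, at -0.38, were close to Irf8, so its fall did not set it apart from this list. Gfi1 and Batf3 had log2 fold changes of 1.51 and 2.23 under this scaling.

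**Figure D4:**
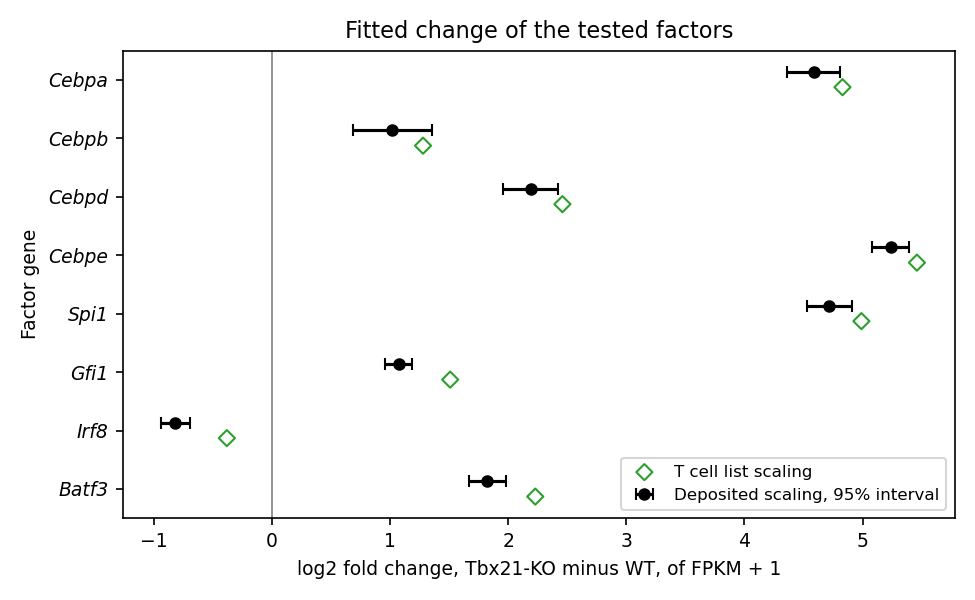
Log2 fold change (Tbx21-KO minus WT, of FPKM + 1) of the 8 tested factors. Black points with bars are limma estimates with 95% intervals at the deposited scaling, and green diamonds are estimates with the libraries rescaled to T cell receptor genes. Irf8 is below 0 under both scalings and the other 7 are above 0.

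Batf3, a basic leucine zipper factor needed for cross-presenting dendritic cells and also present in activated T cells (ENSMUSG00000026630; chromosome 1, 191097847 to 191108945), had WT values of 6.22 and 6.82 FPKM and Tbx21-KO values of 26.1 and 25.0 FPKM. It rose 3.92-fold, from a level clearly above the filter in WT, a log2 difference of 1.82 (SE 0.06, limma adjusted p = 5.38e-05). Zbtb46, a zinc finger factor of conventional dendritic cells (ENSMUSG00000027583; chromosome 2, 181387762 to 181459426), had WT values of 0.151 and 0.17 FPKM and Tbx21-KO values of 0.297 and 0.24 FPKM. It was low in all 4 libraries, from 32 and 35 reads in WT and 59 and 49 in Tbx21-KO. The read ratio was 1.67 (interval 1.22 to 2.30), and the log2 fold change was 0.13 in the fits that tested it (limma adjusted p = 0.277 at a mean of 0.1 FPKM and 0.142 with no filter).

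Most neighbours in the order of levels did not overlap. In WT the library ranges did overlap for Cebpb and Cebpd, for Spi1 and Gata1, and for Zbtb46 and Cebpa. In Tbx21-KO they overlapped for Spi1 and Gfi1 and for Cebpa and Batf3. An exact two-sided permutation test on 2 against 2 libraries gives 0.33 as its smallest p, so none was run for a factor on its own. Leaving out any 1 library changed no direction among the 8 tested factors. Only Gfi1, Irf8 and Batf3 had a WT mean of at least 1 FPKM, and the other 5 could hardly have been lower.

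Promoter sequence is shown for 3 factors that changed differently: Cebpa, which came up from near 0, Gfi1, which rose from an expressed level, and Irf8, which fell. Each run is the 250 bases before the RefSeq gene start (GRCm38.p6), read along the gene, and covers chr7:35119043-35119292 on the plus strand for Cebpa, chr5:107725806-107726055 on the minus strand for Gfi1 and chr8:120736108-120736357 on the plus strand for Irf8. The Gfi1 run lies mostly within the gene bounds given above, since its RefSeq start lies inside them. Capitals mark matches to the motifs given after the sequences.
Cebpa: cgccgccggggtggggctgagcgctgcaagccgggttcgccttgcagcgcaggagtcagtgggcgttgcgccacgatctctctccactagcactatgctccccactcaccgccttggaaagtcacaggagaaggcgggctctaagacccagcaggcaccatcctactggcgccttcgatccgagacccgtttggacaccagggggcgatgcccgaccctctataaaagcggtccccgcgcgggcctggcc
Gfi1: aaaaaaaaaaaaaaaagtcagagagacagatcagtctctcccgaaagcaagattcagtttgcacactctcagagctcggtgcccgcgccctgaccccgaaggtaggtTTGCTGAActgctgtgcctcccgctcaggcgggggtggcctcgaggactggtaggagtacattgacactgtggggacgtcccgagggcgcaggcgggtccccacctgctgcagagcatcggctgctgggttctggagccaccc
Irf8: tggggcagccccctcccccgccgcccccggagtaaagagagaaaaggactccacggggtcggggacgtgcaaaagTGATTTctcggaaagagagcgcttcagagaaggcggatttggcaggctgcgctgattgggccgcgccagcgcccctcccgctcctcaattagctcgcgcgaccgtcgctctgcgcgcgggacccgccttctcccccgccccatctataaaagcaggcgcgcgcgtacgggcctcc

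Of the 10 factors 7 had such a window, and Cebpd, Cebpe and Spi1 had none. Gfi1 and Irf8 had 2 starts each, which gives 9 windows, and the first start is the one printed. They were searched on both strands for TTGCNNAA (C/EBP), GAGGAAGT (PU.1) and GATA motif AGATAA, the T-box motif GGTGTGA, the AP-1 and BATF motif TGANTCA, the interferon regulatory factor element and the GFI1 motif AAATCA. Of all 32851 windows, 9.56%, 2.44%, 9.99%, 3.33%, 6.75%, 2.98% and 12.4% hold these motifs. The C/EBP motif matched as TTGCTGAA 143 bases before the printed start of Gfi1. The GFI1 motif matched on the reverse strand, as TGATTT, 175 bases before the printed start of Irf8 and 226 bases before its other start. Zbtb46 held the AP-1 motif 61 bases before its RefSeq start, which lies well within the gene bounds given above. The windows of Gata1 and Batf3 and that of the other start of Irf8 also lie within such bounds, and those of Gfi1 wholly or mostly. Which start is used in these cells was not tested, so these windows may not be the promoters in use. The windows of Cebpa, Cebpb, Gata1 and Batf3 held none of the 7 motifs, and none of the 9 windows held the T-box motif. A match is a description of letters and not a site.

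Other factors of the same programmes were read from lists assembled with earlier results of these data known, and genes under the filter were not tested. Of 11 granulocyte factors and partners, 10 were tested, of which 7 were higher, 1 lower and 2 not called, with a median log2 fold change of 0.73. Over all genes tested 30.1% were higher and 23.0% lower. Of the 10, 8 had a WT mean of at least 1 FPKM. Klf5 and Hoxa9 did not and passed through the Tbx21-KO libraries, so they could hardly have been called lower. Klf5, a Krueppel-like factor, rose by 1.94 on the log2 scale, from 0.186 and 0.193 to 3.51 and 3.60 FPKM. Hoxa9, a homeobox factor of progenitors, had no read in either WT library and 719 over both Tbx21-KO libraries, which is at least 248-fold higher against a floor of 3 reads over the WT group. The list's median stays at 0.73 with Hoxa9 at that bound. Cbfb, which encodes the partner of the RUNX proteins, fell by 0.47, and was at -0.03 and not called with T cell list scaling. Ddit3 and Trib2 were not called, at 0.19 and -0.15. Without Tbx21-KO replicate 1, fewer genes of the list were called higher, and 9 were tested in place of 10.

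Of 14 monocyte and dendritic cell factors with a row, 11 were tested, of which 5 were higher, 1 lower and 5 not called, with a median of 0.15. In the same fit 30.1% of all genes tested were higher and 23.0% lower. Maf, a basic leucine zipper factor of macrophages and of T cell subsets, rose by 2.26, from 2.91 and 2.80 to 17.9 and 17.1 FPKM. Irf5, an interferon regulatory factor of macrophages, rose by 1.04. Nr4a1, a nuclear receptor of patrolling monocytes that T cell receptor signalling also induces, fell by 0.50 and was not called with T cell list scaling, at -0.07. With that scaling 8 of the 11 were higher and none lower, where 71.8% of all genes were higher, so that count is near the background.

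Of 10 erythroid, megakaryocyte and mast cell factors with a row, 6 were tested and all 6 were higher, with a median of 3.28. Only 1 of them had a WT mean of at least 1 FPKM, so the count supports nothing. Nfe2, the NF-E2 subunit of platelet and erythroid precursors, rose from 0.281 and 0.111 to 24.1 and 24.4 FPKM, and Lyl1, a progenitor factor, from 0.111 and 0.23 to 21.3 and 21.1 FPKM. Gata2, named after its values were seen, is the GATA factor of progenitors and mast cells and had WT values of 0.111 and 0.0998 FPKM and Tbx21-KO values of 12.1 and 12.3 FPKM. Its level in Tbx21-KO was above that of Gata1. Klf1, the erythroid factor that works with GATA1, was under the filter, with 0.105 and 0.135 FPKM (WT) against 0.14 and 0.245 (Tbx21-KO). The other 3 genes under the filter, named after their values were seen, were called higher at a mean of 0.1 FPKM, where 9 of the 10 were higher and Klf1 was not called. Tal1, a partner of GATA factors, went from 0.0549 and 0.0379 to 1.54 and 1.62 FPKM, and Mitf, a mast cell factor, from 0.252 and 0.174 to 1.34 and 1.38 FPKM. Gfi1b, the erythroid relative of Gfi1, went from 0 and 0.0226 to 1.19 and 0.728 FPKM.

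**Figure D5:**
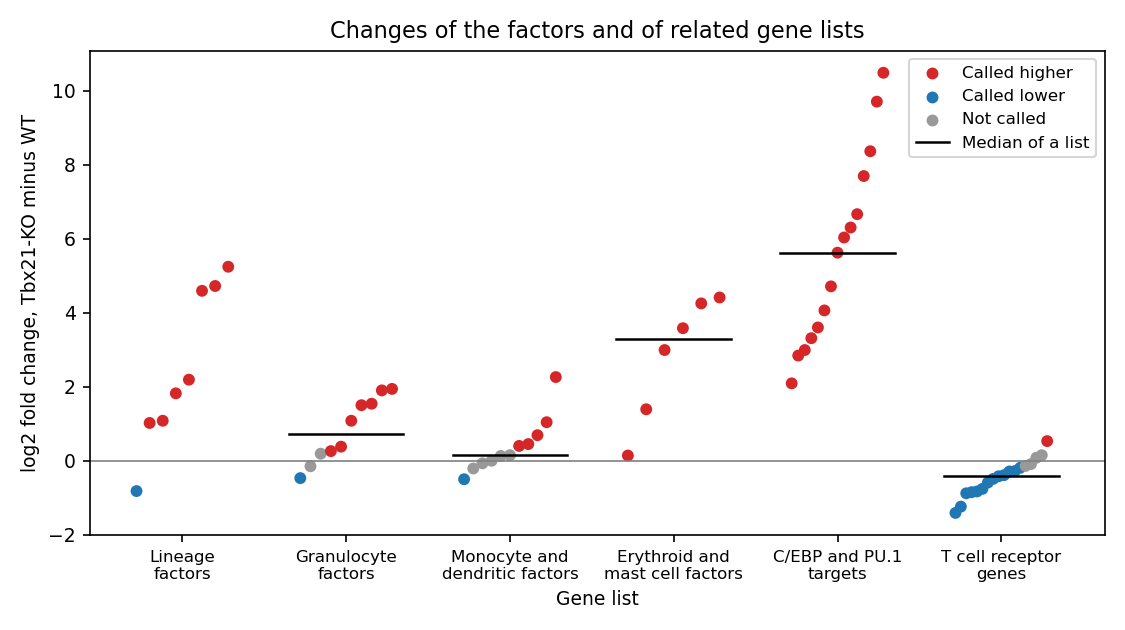
Log2 fold change (Tbx21-KO minus WT) of each tested gene in 6 lists, sorted within a list. Red points were called higher, blue points lower and grey points not called, and bars mark the medians of the lists other than the lineage factors. The C/EBP and PU.1 targets lie highest and the T cell receptor genes mostly below 0.

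Genes that C/EBP factors and PU.1 are known to activate were higher together with them. Of 16 such genes with a row, 15 were tested, with a median log2 fold change of 5.62. All 15 were higher, where 30.1% of all genes tested were. Only 6 of the 15 had a WT mean of at least 1 FPKM. The others could hardly have been called lower, so the count supports nothing. Summed over the 16 genes, FPKM came to 22.8 and 28.6 in WT and to 5610 and 5630 in Tbx21-KO, and none of the 16 was under 0.1 FPKM in all libraries. The largest changes were those of Ngp, a granule protein of neutrophils, at 10.48, and Elane, neutrophil elastase, at 9.70. These transcripts are markers of granulocytes and monocytes, and their part in the rise of the lineage factors was not tested.

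Markers that belong to the territory of single factors were set beside them. Of the erythroid genes 7 had a row and none passed the filter, and their summed FPKM was 0.414 and 0.236 in WT and 1.42 and 1.86 in Tbx21-KO. Ermap and Epb42 were under 0.1 FPKM in all 4 libraries. At a mean of 0.1 FPKM 4 were tested, and Hbb-bt, a beta globin gene, was called higher, from 0.057 and 0.059 to 0.67 and 1.30 FPKM (log2 difference 0.89, limma adjusted p = 0.0224). Hbb-bt has a near-identical copy, Hbb-bs, so its reads are uncertain. Among 8 eosinophil, basophil and mast cell genes with a row, 6 were tested, with 5 higher and 1 lower, but only 3 of the 6 had a WT mean of at least 1 FPKM, so the count supports nothing. The summed FPKM of the 8 went from 24.0 and 24.7 to 442 and 435. Prg2 and Epx, granule proteins of eosinophils, rose by 7.05 and 5.92, whereas Kit, the stem cell factor receptor of mast cells and progenitors, fell by 0.62. The other genes called higher, Mcpt8, Cpa3 and Fcer1a, were named after their values were seen and rose by 4.76, 3.52 and 3.00. Ccr3, an eosinophil chemokine receptor, was at or under 0.209 FPKM in each library. With the filter at a mean of 0.1 FPKM 6 of the 8 were higher and 1 lower, where 23.4% of all genes were higher. Siglecf, from 5 to 190 reads a group, was among the higher there, and Ccr3 was not called. The part of these cells in the values of Gata1 was not tested.

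For Batf3 and Zbtb46, the comparison is with conventional dendritic cell genes. Of 9 with a row, 4 were tested, of which 2 were higher and 2 not called, with a median of 0.03. In the same fit 30.1% of all genes tested were higher. The summed FPKM of the 9 was 36.2 and 35.2 in WT and 52.5 and 53.7 in Tbx21-KO. Ccr7, a chemokine receptor that T cells also carry, rose by 0.66 and Ly75 by 0.27. Xcr1 and Itgax were not called, at -0.29 and -0.22. Clec9a, Cd209a and Cadm1 were under 0.1 FPKM in all 4 libraries. At a mean of 0.1 FPKM Clec10a, a lectin of dendritic cells and macrophages, was called higher, from 0 and 0.0715 to 0.961 and 0.976 FPKM (log2 difference 0.93, limma adjusted p = 0.00286). In that fit Flt3, from 16 to 44 reads a group, was not called, and the call of Ly75 was lost (limma adjusted p = 0.0646). Of 7 B cell genes with a row, 3 were tested and all 3 were higher, where 30.1% of all genes tested were. Among them were Blk and Igkc at 2.90 and 2.32, while Ms4a1 and Pax5 were under 0.1 FPKM in all libraries. Whether other cells contributed to the values of Batf3, Gfi1 and Irf8 was not tested.

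Among 35 other factors of the first 3 lists, those nearest to each lineage factor were found by the Euclidean distance of log2(FPKM + 1) over the 4 libraries, as a description of likeness only. Cebpa was nearest to Nfe2, at a distance of 0.19, and Gata1 to Mitf, at 0.27. Gfi1 was nearest to Irf4, at 0.42, with Irf4 values of 18.2 and 19.2 (WT) and 31.6 and 29.8 FPKM (Tbx21-KO). For Irf8 the nearest was Cbfb, at 0.82, and for Cebpd, Cebpe, Cebpb and Batf3 the nearest factor lay farther off, at 0.83 to 1.04.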

How the data were processed

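Total RNA of 2 WT and 2 Tbx21-KO samples was sequenced from SMARTER mRNA-Seq libraries, per the labels' protocols. The authors deposited FPKM values per Ensembl gene; the submitters' processing notes name the builds GRCm38 and mm10. Aligner, counting tool and strand setting: not given in the sources used here. Of 24769 rows, the last was incomplete and was not used. Symbols, coordinates and exon lengths came from GENCODE M21 (GRCm38), in which 24720 IDs matched. With these lengths, 96.8% to 97.3% of values under 20 reads came out as whole reads within 0.1, which gave the read numbers. For Cebpe the reads were off whole numbers by a constant factor and are rounded.

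Limma 3.58.1 in R 4.3.3 was run on log2(FPKM + 1), with a variance trend, a mean FPKM of at least 1 and Benjamini-Hochberg adjustment over 11013 genes; the steps were tested on simulated data. Alternatives varied pseudocount, filter, scaling, variance trend, voom on recovered reads, a replicate block and libraries left out. Named genes were the 10 factors, Tbx21 and, per list, the 2 largest called rises and falls (at most 4 genes), uncalled genes where they were 3 or fewer, and the nearest factor for 4 members. The factors and lists were chosen with earlier results of these data known.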

Additional observations from a re-analysis of the deposited data

How the results depend on the processing

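The 8 tested factors kept their direction and their call under each alternative that tested them (14 or 15 each), and Gata1, untested at a mean of 1 FPKM, was called higher in both fits that tested it. The sizes depended on the scale. From a pseudocount of 5 to voom, log2 fold changes ran from 2.61 to 7.71 for Cebpa and 3.08 to 10.36 for Cebpe. Between the same settings they ran from 2.86 to 6.73 for Spi1, 1.00 to 3.44 for Cebpd and 0.39 to 1.77 for Cebpb. From a pseudocount of 5 to T cell list scaling they ran from 1.41 to 2.23 for Batf3 and 0.92 to 1.51 for Gfi1. For Irf8 they ran from -0.93 with median-of-ratios scaling to -0.38 with T cell list scaling. Tbx21 was lower under all alternatives.

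At a mean FPKM of at least 5, 2018 genes were higher of 7032 tested and 4 granulocyte factors were higher of 6 tested, since fewer genes were tested. Rescaling to the T cell list called 7912 genes higher and 536 lower (93.7% of calls higher, against 56.7% at the deposited scaling), 8 monocyte and dendritic cell factors were higher, and no gene of that list and none of the granulocyte list (0 in each) was lower. After quantile normalization 3801 genes were lower (39.1% of calls higher), with 2 granulocyte factors and 3 monocyte and dendritic cell factors lower. After median-of-ratios scaling 43.0% of calls were higher, and 3 monocyte and dendritic cell factors were lower. The all-gene median shifted by 0.40 (T cell list), -0.13 (quantile) and -0.10 (median-of-ratios) in log2 units. Leaving out 1 library at a time gave 4 to 7 higher granulocyte factors, 4 to 7 higher erythroid, megakaryocyte and mast cell factors, and 2282 to 3153 higher and 1774 to 2214 lower genes. The number of genes tested also changed with the library left out. With a replicate block 7 factors were higher and 1 lower, as without it, and 3245 and 2482 genes were called. The differences between libraries 1 and 2 correlated at -0.025 across 11013 genes between the groups, so no effect shared by library number was seen. This cannot tell whether the samples were paired by origin. Cebpe in WT rests on 1 read and Cebpa on 18, so depth limits their ratios.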

Other observations

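Relatives of the lineage factors were read from family lists chosen after the results were seen. The family counts stand beside 30.1% of all genes tested called higher and 23.0% called lower at the deposited scaling. Of the other interferon regulatory factors, 8 had a row and 7 were tested, of which 4 were higher, 3 not called and none lower. Irf4 rose from 18.7 ± 0.71 to 30.7 ± 1.28 FPKM and Irf1 from 66.8 ± 0.67 to 87.4 ± 1.95 FPKM (SD, n = 2 each), log2 fold changes of 0.69 and 0.38. Irf3, Irf7 and Irf9 were not called, at 0.04, 0.03 and 0.08. Of the 8 tested members with Irf8 included, only Irf8 was called lower at the deposited scaling. Of 13 other ETS factors with a row, 10 were tested, with 2 higher, 5 lower and 3 not called, and a median of -0.09. Etv6, an ETS repressor of blood progenitors, rose from 10.5 to 26.3 FPKM in the mean and Ets1, a factor abundant in T cells, by 0.52 on the log2 scale, whereas Etv3 fell by 0.86. Spib and Spic, the closest relatives of Spi1, were under 0.3 FPKM in all 4 libraries. Spib had 5 reads in WT and 33 in Tbx21-KO, a read ratio of 6.84 (interval 2.65 to 22.4), and was not called at a mean of 0.1 FPKM (limma adjusted p = 0.0764).

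Of 10 other AP-1 factors tested, 6 were higher, 2 lower and 2 not called, with a median of 0.39. At the same scaling 30.1% of all genes tested were higher and 23.0% lower. Jdp2 rose by 1.04 and Fos by 0.83, and Fosb fell by 0.70. Gata3, the GATA factor of T cells, was not called, at -0.13, with 7.31 ± 0.17 FPKM (WT) against 6.60 ± 0.44 (Tbx21-KO; SD, n = 2 each). With T cell list scaling Gata3, Irf3, Irf7 and Irf9 were called higher. So were 71.8% of all genes tested, with the all-gene median moved by 0.40, so these calls do not set the 4 genes apart.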
